A study of Mus musculus with 35 samples.

Results

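Markers of the immune cells of the liver were described in the livers of 21 C57Bl6 mice. They comprise 46 named genes of the 55413 in the count table, and all 46 were found by symbol. They were read as 8 sets, with 6 genes for Kupffer cells, 10 for monocytes and macrophages, 1 for all leukocytes, 9 for T cells, 6 for B cells, 6 for NK and cytotoxic cells, 4 for neutrophils and 4 for dendritic cells. The genes were listed by name, with earlier results of these data known.

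Liver RNA was sequenced from the 3' end of transcripts with 1 column of counts per mouse. The 6 Smyd3-ASO mice received diethylnitrosamine (DEN, a liver carcinogen) by intraperitoneal injection at 25 mg/kg on day 14, then an ASO, a synthetic antisense oligonucleotide that lowers the RNA it is complementary to, against Smyd3. The ASO was given intraperitoneally at 50 mg/kg, 2 times a week after day 133, and the livers were taken on day 260. The 6 control-ASO mice had the same DEN, dosing and day of harvest with a control ASO. The 4 P133 mice had DEN, no ASO and a harvest on day 133. The 5 untreated mice were harvested on day 260 without DEN or ASO. The labels call every DEN sample tumour and every untreated sample normal liver, while the protocol speaks of pieces of liver, and how the pieces were chosen is not stated. Control ASO over untreated therefore combines DEN with ASO injections, P133 over untreated combines DEN with a younger age, and either ASO group over P133 combines age with ASO injections.

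Total counts were 6358080 to 20258619 per Smyd3-ASO mouse, 6789715 to 13805881 per control-ASO mouse, 4556484 to 6447397 per P133 mouse and 10186780 to 13116012 per untreated mouse. The 10 most abundant genes took 9.46 to 15.7% of counts in Smyd3-ASO, 17.3 to 22.9% in control-ASO, 17.4 to 19.1% in P133 and 24.9 to 32.2% in untreated mice. The targeted gene, Smyd3, had 0 to 13 counts under Smyd3-ASO against 29 to 68 under control ASO. Levels are CPM, each count relative to the library total, scaled by the trimmed mean of M values (TMM) over all 21 mice. The 8 hepatocyte markers, among them Alb, summed to 28800 to 51400 CPM in Smyd3-ASO mice, 72700 to 117000 in control-ASO mice, 50500 to 54000 in P133 mice and 84300 to 141000 in untreated mice. The immune markers together took 0.0425 to 0.0691% of all counts in Smyd3-ASO mice, 0.0237 to 0.0579% in control-ASO mice, 0.0348 to 0.0506% in P133 mice and 0.0140 to 0.0249% in untreated mice. In these bulk samples more cells of a type and more RNA per cell cannot be told apart.

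Kupffer cells are the resident macrophages that line the liver sinusoids, where they clear particles and complement-coated microbes from portal blood. Monocytes arrive from the blood through chemokine receptors such as Ccr2 and can become macrophages in injured or tumour-bearing liver. B cells with plasma cells, T cells, NK cells, dendritic cells and neutrophils make up most of the other leukocytes of the organ.

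The promoters of 4 members are shown because their levels carry the main patterns below. Lyz2 and Cd300ld, both myeloid genes, were higher under Smyd3-ASO than under control ASO. Gpnmb was counted almost only in ASO mice, and Clec4f was lowest in Smyd3-ASO mice. Each is 300 bases of RefSeq sequence on GRCm38.p6, written on the strand of the gene. It runs from 250 bases before the RefSeq start to 50 after it, and that start differs from the start of the GENCODE gene given next. On mm10 (GENCODE vM21) the genes lie on chromosome 11 at 114982274 to 114989922 for Cd300ld, chromosome 10 at 117277331 to 117282321 for Lyz2, chromosome 6 at 49036546 to 49070929 for Gpnmb and chromosome 6 at 83644542 to 83656187 for Clec4f. All 4 are protein-coding. The windows are chr11:114989837-114990136 (minus strand) for Cd300ld, chr10:117282223-117282522 (minus) for Lyz2, chr6:49036268-49036567 (plus) for Gpnmb and chr6:83656067-83656366 (minus) for Clec4f. Capitals mark matches, on either strand, to GAGGAAG or AGGAAGT, which resemble sites of the myeloid ETS factor PU.1, or to TGACTCA, the AP-1 consensus.
Cd300ld: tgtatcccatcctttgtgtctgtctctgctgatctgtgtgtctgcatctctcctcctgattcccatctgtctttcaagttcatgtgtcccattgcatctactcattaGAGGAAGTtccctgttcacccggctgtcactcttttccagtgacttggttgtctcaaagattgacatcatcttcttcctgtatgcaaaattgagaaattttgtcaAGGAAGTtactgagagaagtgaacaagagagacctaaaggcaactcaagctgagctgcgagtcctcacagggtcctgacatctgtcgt
Lyz2: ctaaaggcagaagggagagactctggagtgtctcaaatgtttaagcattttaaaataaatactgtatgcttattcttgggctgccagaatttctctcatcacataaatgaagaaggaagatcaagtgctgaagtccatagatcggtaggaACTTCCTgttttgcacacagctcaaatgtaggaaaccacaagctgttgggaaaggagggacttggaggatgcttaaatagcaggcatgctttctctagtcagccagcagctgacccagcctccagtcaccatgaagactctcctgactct
Gpnmb: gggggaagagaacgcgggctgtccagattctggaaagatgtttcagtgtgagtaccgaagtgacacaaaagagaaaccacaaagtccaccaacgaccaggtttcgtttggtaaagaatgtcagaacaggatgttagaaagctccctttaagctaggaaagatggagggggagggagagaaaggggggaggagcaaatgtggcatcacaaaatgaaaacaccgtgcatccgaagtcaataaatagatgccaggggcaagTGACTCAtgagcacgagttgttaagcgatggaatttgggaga
Clec4f: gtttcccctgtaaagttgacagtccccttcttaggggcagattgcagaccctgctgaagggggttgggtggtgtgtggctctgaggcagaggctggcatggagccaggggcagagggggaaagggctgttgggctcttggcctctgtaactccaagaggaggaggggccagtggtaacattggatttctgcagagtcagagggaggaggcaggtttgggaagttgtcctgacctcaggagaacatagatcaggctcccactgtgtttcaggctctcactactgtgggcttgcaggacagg

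Of the 46 members 37 had such a promoter, in 41 windows. GAGGAAG was found in 31.7% of the 41 windows and in 13.6% of all 32851 windows, and AGGAAGT in 31.7% against 9.35%. GAGGAAGT, which contains both, was in 14.6% against 3.20%, all of them windows of Cd300ld, Ly6c2, Ly6g and S100a8. TGACTCA was in 9.76% against 5.20% and TATAAA in 17.1% against 13.6%. CCGGAAG, a housekeeping ETS site, was in 0% against 8.86%. The 6 motifs were searched on both strands, and a match is a run of letters and not a site shown to be bound.

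Enough reads for a test were found for 30 of the 46 markers, which were tested with edgeR among 15297 genes at an adjusted p of 0.05. The other 16 did not pass the filter on low counts. They are given below by raw counts, with the adjusted p of a fit without the filter where it passed. Smyd3-ASO over control ASO had 8 members higher and 0 lower, beside 13.3% of all genes higher, 12.9% lower and 26.1% in either direction. Those 8 were Marco, Lyz2, Ly6c2, Itgam, Cd300ld, Trbc2, Cd79b and Siglech. The median log2 fold change of the 30 members was 0.66, beside 0.01 over all genes tested. The share of members called, 26.7%, was thus near the background in either direction, and all the calls were on the higher side. Of the 30, 8 members would not have passed the filter without the Smyd3-ASO mice (Ly6c2, Ccr2, Itgam, Trem2, Cd3d, Cd79b, Cxcr2 and Siglech), and 4 of these are among the 8 calls, so the count and the median are a description only. The other 22 had a median of 0.31 with 4 higher. The count of 8 includes 3 calls that ended when a single mouse was left out.

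Against untreated livers, all DEN groups had more markers higher than lower. Control ASO over untreated had 10 higher and 6 lower, with 23.7% of all genes higher, 22.2% lower and 45.9% in either direction. Smyd3-ASO over untreated had 17 higher and 4 lower, with 24.4%, 23.2% and 47.6% of all genes. P133 over untreated had 9 higher and 2 lower, with 15.1%, 16.6% and 31.6%. The members called were 53.3% of the 30 under control ASO, 70.0% under Smyd3-ASO and 36.7% at P133. The shares under control ASO and at P133 were thus near those of all genes, 45.9% and 31.6%. The median log2 fold changes of the 30 members were 0.39, 1.28 and 0.41 in these comparisons, beside 0.06, 0.06 and 0.00 over all genes. With library totals in place of TMM, members higher and lower were 15 and 1 under control ASO, 23 and 2 under Smyd3-ASO and 12 and 0 at P133. The medians of all genes were then also higher, at 0.90, 0.96 and 0.59. These 3 comparisons share the 5 untreated mice. Of the 17, Ccr2, Itgam, Trem2, Cxcr2 and Siglech would not have passed the filter without the Smyd3-ASO mice. Gpnmb, Gzma and Itgax would not have passed it without the 2 ASO groups. These counts, shares and medians are therefore a description only.

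Between DEN groups of different age, control ASO over P133 had 5 members higher and 6 lower, with 14.4% of all genes higher, 12.6% lower and 27.0% in either direction. With library totals those members were 6 higher and 2 lower, with the median log2 fold change of all genes at 0.28 in place of 0.03. Smyd3-ASO over P133 had 9 higher and 3 lower, with 13.1%, 11.7% and 24.8% of all genes. Both comparisons share the 4 P133 mice. Ly6c2, Ccr2, Itgam and Cd79b, among the 9, and Cd79b and Cxcr2, among the 5, would not have passed the filter without the Smyd3-ASO mice. Gpnmb, in both counts, would not have passed it without the 2 ASO groups. Both counts are therefore a description only. The heat map of fold changes shows that Clec4f, Vsig4 and Csf1r were lower in both, and that Cx3cr1, Gpnmb, Cd79b and S100a8 were higher in both.

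**Figure D1:**
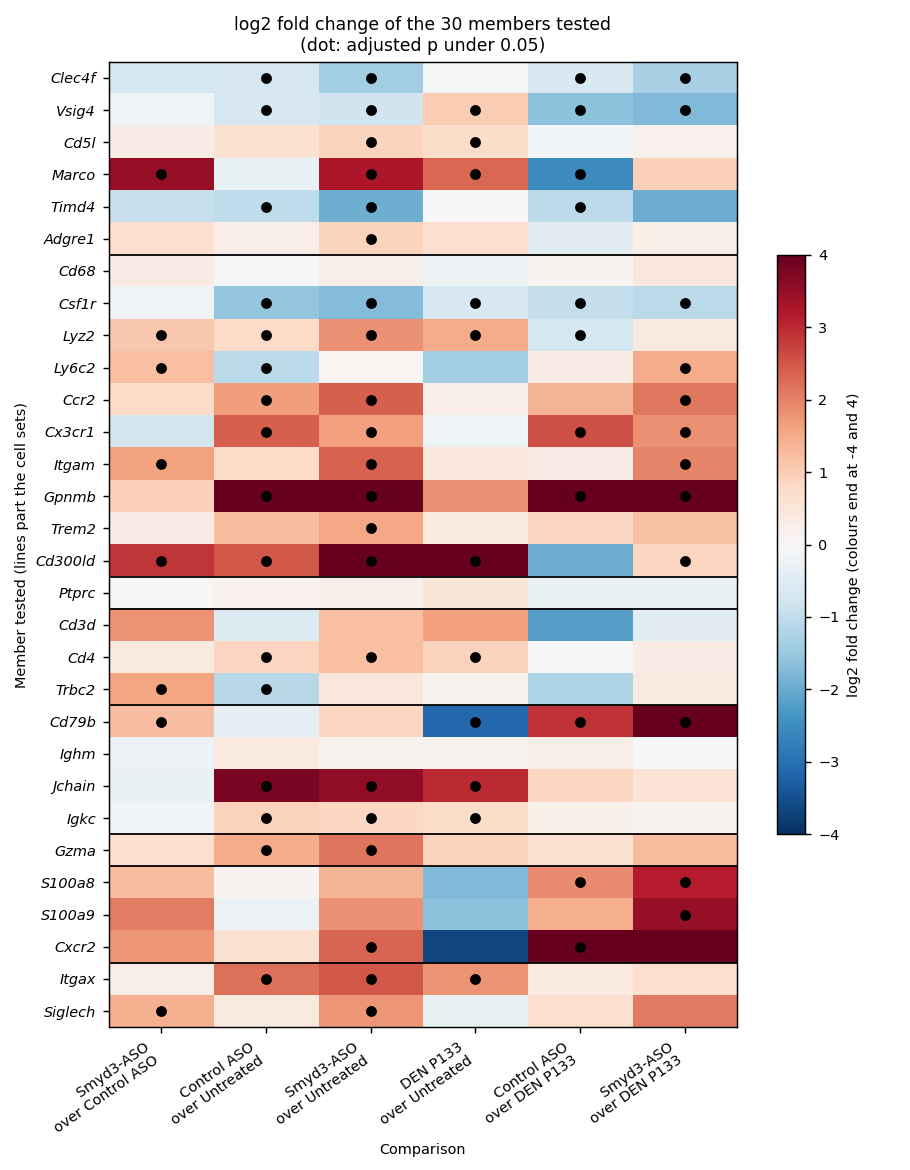
Log2 fold changes of the 30 members tested (rows, in their cell sets) in the 6 comparisons (columns), red for higher and blue for lower in the group named first, with a dot where the adjusted p was under 0.05. The first column has 8 dots, all on red cells, while the third column has 17 dots on red and 4 on blue cells.

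The summed level of the 6 Kupffer cell genes was 157 to 352 CPM in Smyd3-ASO, 114 to 269 in control-ASO, 213 to 332 in P133 and 128 to 238 CPM in untreated mice, so the groups overlapped. Most of that sum was Cd5l, which averaged 157, 128, 138 and 84.0 CPM, and Marco reached 119 CPM in 1 Smyd3-ASO mouse. Of the 6 genes, 3 were higher and 3 lower under Smyd3-ASO than in untreated livers, 0 and 3 under control ASO and 3 and 0 at P133. Of all genes tested, 24.4% were higher and 23.2% lower under Smyd3-ASO, 23.7% and 22.2% under control ASO and 15.1% and 16.6% at P133. The mean levels of Clec4f, Vsig4 and Timd4, which mark settled Kupffer cells, were lowest in the ASO groups, while the mean of Cd5l was lowest in untreated livers.

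**Figure D2:**
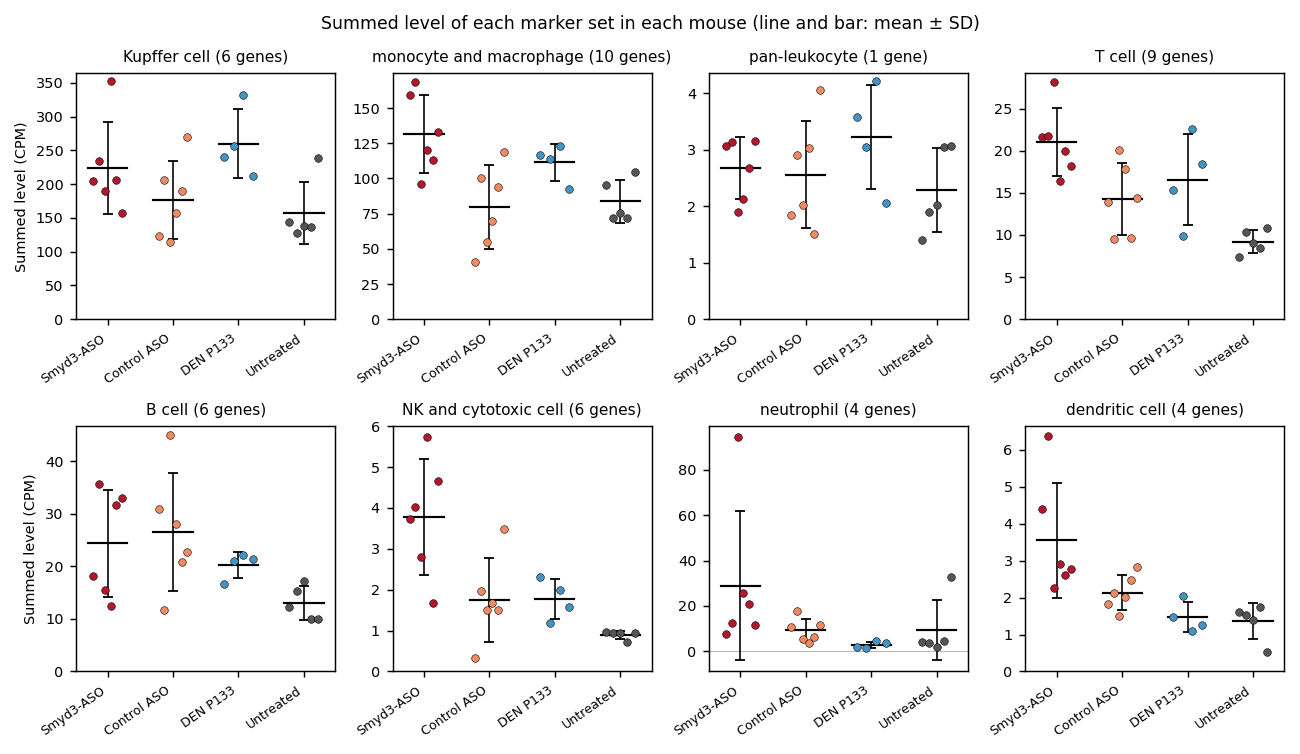
Summed level of each marker set (CPM, linear axis) in each mouse, with 6 Smyd3-ASO, 6 control-ASO, 4 P133 and 5 untreated mice from left to right. Each point is a mouse, and the line and bar are the mean and SD. The T cell sum was 16.4 to 28.2 CPM in Smyd3-ASO mice and 7.40 to 10.8 CPM in untreated mice, of which Cd4 alone averaged 16.4 and 7.06 CPM, while the B cell sums of the Smyd3-ASO and control-ASO mice overlapped.

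Clec4f, a C-type lectin of Kupffer cells, stood at 5.71 to 17.0 CPM in Smyd3-ASO mice (median 8.98), at 11.7 to 22.5 in control-ASO mice (median 15.6), at 25.4, 26.9, 26.8 and 17.7 in P133 mice and at 26.9, 20.1, 22.9, 23.9 and 33.4 CPM in untreated mice. Every Smyd3-ASO mouse lay below every P133 and untreated mouse. It was lower in Smyd3-ASO than in untreated livers (log2 -1.38, SE 0.25, adjusted p = 6.26e-04) and than in P133 livers (log2 -1.29, SE 0.28, adjusted p = 0.00586). Control ASO over untreated was log2 -0.68 (SE 0.18, adjusted p = 0.00595), which turned to 0.18 with library totals in place of TMM. The median of all genes was then at 0.90. Between the ASO groups Clec4f was at log2 -0.69 (adjusted p = 0.0564), and at P133 it was at -0.07 over untreated livers (adjusted p = 0.788). The Smyd3-ASO value passed with DESeq2 (adjusted p = 0.0409) and with limma voom (0.0420). With library totals it was at log2 -0.72 (0.0378), and P133 over untreated was then at 0.52 (0.0373), with the median of all genes at 0.59. Control ASO over P133, at log2 -0.61 (adjusted p = 0.0274), ended without control-ASO mouse 2 or P133 mouse 1, 2 or 3 (adjusted p up to 0.0822).

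Vsig4, a complement receptor that takes up opsonised particles, was highest in P133 livers. It had 12.3 to 43.8 CPM in Smyd3-ASO mice (median 17.8), 19.0 to 30.1 in control-ASO mice (median 23.7), 56.1, 60.3, 123 and 54.4 in P133 mice and 35.8, 26.5, 36.7, 36.0 and 49.1 CPM in untreated mice. No other group reached the lowest P133 mouse. The P133 livers exceeded untreated livers by log2 1.00 (SE 0.26, adjusted p = 0.0136). Smyd3-ASO over P133 was log2 -1.78 (SE 0.36, adjusted p = 0.00539), and control ASO over P133 was log2 -1.63 (SE 0.22, adjusted p = 2.57e-04). Under control ASO it was lower than in untreated livers, at log2 -0.63 (adjusted p = 0.00423), which turned to 0.23 with library totals. Smyd3-ASO over untreated, at log2 -0.81 (adjusted p = 0.0337), turned to 0.05 with library totals and ended without any 1 of Smyd3-ASO mice 1, 2, 3, 4 and 6 or of untreated mice 1, 3, 4 and 5 (adjusted p up to 0.0852).

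Timd4, which binds phosphatidylserine on dying cells, was low in all groups, with 1 to 68 counts a mouse. It stood at 0.120 to 3.01 CPM in Smyd3-ASO mice (median 0.449), 0.918 to 2.90 in control-ASO mice (median 1.62), 4.63, 2.54, 3.54 and 3.16 in P133 mice and 2.25, 2.96, 4.20, 2.90 and 4.67 CPM in untreated mice. All Smyd3-ASO mice except mouse 4 were below 1 CPM. Against untreated livers it was lower in Smyd3-ASO (log2 -1.95, adjusted p = 0.0216) and in control-ASO livers (log2 -1.01, adjusted p = 0.0117). With library totals these were at -1.11 (0.106) and -0.14 (0.676). Without Smyd3-ASO mouse 4 the log2 change over untreated was -3.03. Over control ASO, Smyd3-ASO gave log2 -0.93 (adjusted p = 0.268) and passed without Smyd3-ASO mouse 4, at -2.01 (0.00711). Timd4 was also lower under control ASO than at P133 (log2 -1.04, adjusted p = 0.0277), a call that ended without P133 mouse 1, 3 or 4 (adjusted p up to 0.0949).

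Marco, a scavenger receptor for bacteria and particles, had 3.79, 11.6, 6.59, 119, 15.0 and 3.53 CPM in Smyd3-ASO mice 1 to 6. It had 0.336 to 5.51 CPM in control-ASO mice (median 1.62), 12.6, 20.5, 12.2 and 10.3 in P133 mice and 1.93, 1.78, 5.91, 1.45 and 3.21 CPM in untreated mice. Smyd3-ASO mouse 4 held most of the group's mean, and all P133 mice lay above all control-ASO and untreated mice. It was higher at P133 than in untreated livers, by log2 2.31 (SE 0.37, adjusted p = 5.52e-04), and control ASO over P133 was log2 -2.54 (SE 0.57, adjusted p = 0.00926). The change under Smyd3-ASO over control ASO was log2 3.49 (SE 1.01, adjusted p = 0.0258), and 1.79 without Smyd3-ASO mouse 4. That call ended without control-ASO mouse 1 (adjusted p = 0.05, just over the threshold), with limma voom (0.105) and without a filter on low counts (0.0671). Smyd3-ASO over untreated, at log2 3.23 (adjusted p = 0.0331), stood at 1.51 without Smyd3-ASO mouse 4 and ended without untreated mouse 1, 2, 4 or 5 (adjusted p up to 0.0711).

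Cd5l, a secreted protein of tissue macrophages, averaged 157 ± 31.6 CPM in Smyd3-ASO mice (SD, n = 6), 128 ± 49.8 in control-ASO (n = 6), 138 ± 15.9 in P133 (n = 4) and 84.0 ± 32.6 CPM in untreated mice (n = 5). The untreated mice stood at 70.9, 74.2, 64.4, 68.4 and 142 CPM, so 4 of them lay within 64.4 to 74.2 CPM and mouse 5 stood apart. It was higher than in untreated livers under Smyd3-ASO (log2 0.88, SE 0.22, adjusted p = 0.00522) and at P133 (log2 0.72, SE 0.21, adjusted p = 0.0208). The P133 call ended without P133 mouse 3 or untreated mouse 2 or 4 (adjusted p up to 0.0637). For control ASO over untreated Cd5l was at log2 0.61 (adjusted p = 0.109) and passed without untreated mouse 5, at 0.88 (0.0160). Adgre1, which encodes the macrophage antigen F4/80, had 4.38 to 13.3 CPM in Smyd3-ASO mice and 2.37 to 5.88 in untreated mice, and was higher under Smyd3-ASO (log2 0.89, adjusted p = 0.0236). That call ended without Smyd3-ASO mouse 2 or untreated mouse 2 or 4 (adjusted p up to 0.0622).

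**Figure D3:**
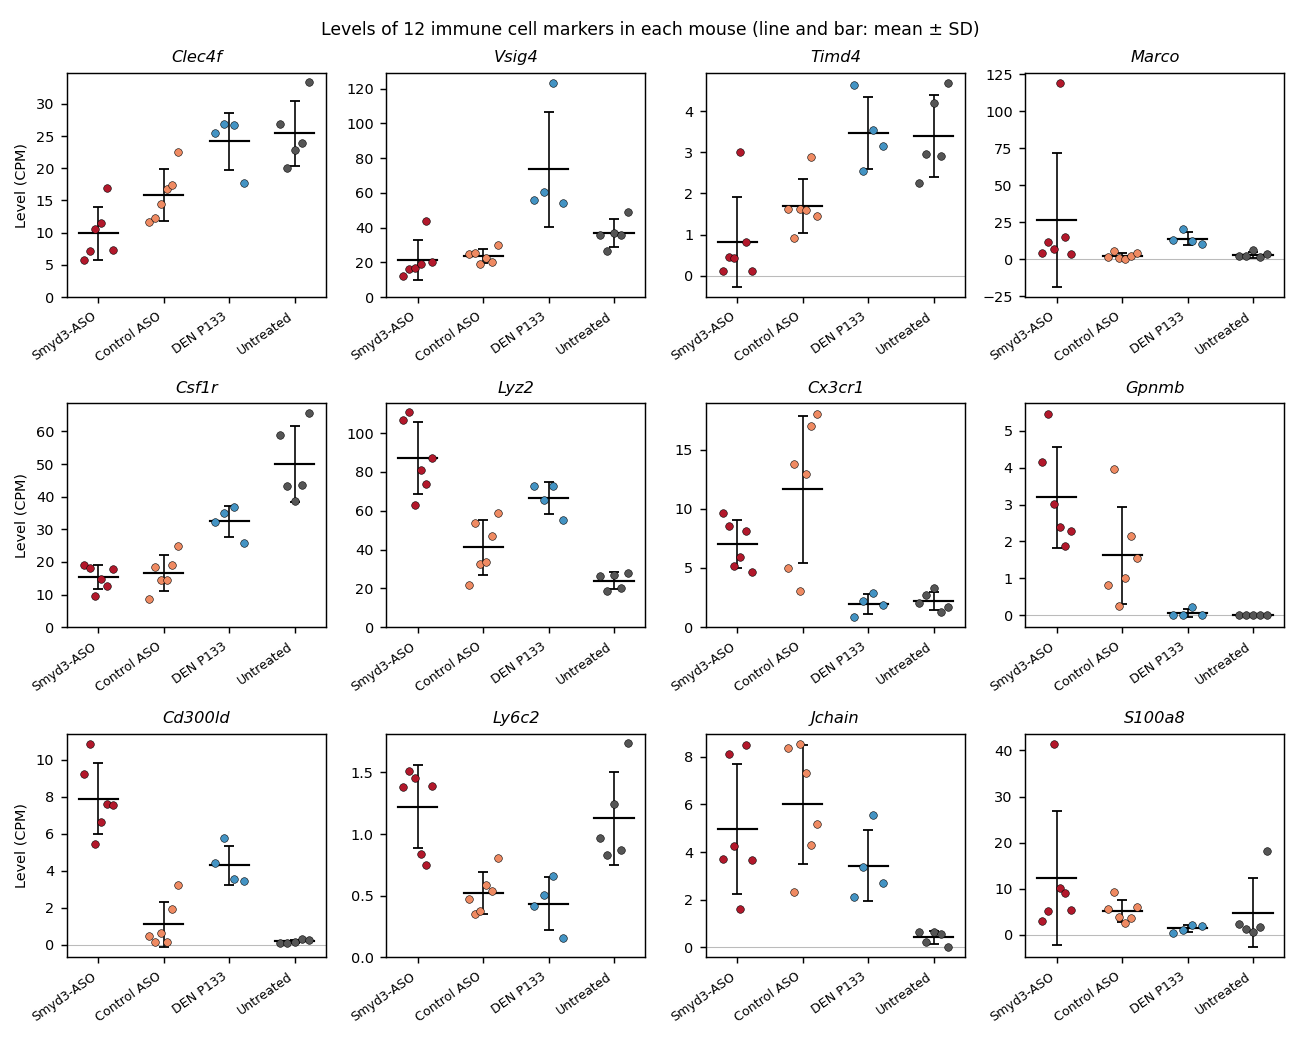
Levels of 12 members (CPM, linear axes that differ between panels) in each mouse, with Smyd3-ASO, control-ASO, P133 and untreated mice from left to right. Points are mice, and the line and bar are the mean and SD. Csf1r was 8.71 to 24.9 CPM in both ASO groups and 25.9 or more elsewhere, while Gpnmb was 0 in all untreated mice.

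Of the 10 monocyte and macrophage genes, 4 were higher and 0 lower under Smyd3-ASO than under control ASO, and 7 higher and 1 lower than in untreated livers. Control ASO over untreated gave 5 higher and 2 lower, and P133 over untreated 2 and 1. Of all genes tested, 13.3% were higher and 12.9% lower in the first comparison, and 24.4% and 23.2% in the second. The shares were 23.7% and 22.2% for control ASO and 15.1% and 16.6% for P133 over untreated. Ly6c2 and Itgam among the 4, and Ccr2, Itgam and Trem2 among the 7, passed the filter only through the Smyd3-ASO mice. Gpnmb passed it only through the ASO mice. Csf1r and Gpnmb parted the ASO mice from the others in opposite directions. Of the 15297 genes tested, 2.74% had every ASO mouse on 1 side of every P133 and untreated mouse. Csf1r, the receptor for macrophage colony-stimulating factor, had 9.67 to 19.2 CPM in Smyd3-ASO mice (median 16.4), 8.71 to 24.9 in control-ASO mice (median 16.5), 32.2, 34.9, 36.8 and 25.9 in P133 mice and 58.9, 43.2, 38.8, 43.5 and 65.7 CPM in untreated mice. The P133 mice lay between the ASO and the untreated mice with no overlap. Csf1r was lower than in untreated livers under Smyd3-ASO (log2 -1.73, SE 0.20, adjusted p = 1.55e-05), under control ASO (log2 -1.59, SE 0.23, adjusted p = 1.00e-04) and at P133 (log2 -0.62, SE 0.17, adjusted p = 0.0127). Smyd3-ASO over P133 was log2 -1.09 (adjusted p = 0.00254) and control ASO over P133 log2 -0.96 (adjusted p = 0.00704). The ASO groups overlapped throughout (log2 -0.13, adjusted p = 0.711). With library totals P133 over untreated was -0.04 (0.878) and control ASO over P133 was -0.68 (0.0664). Csf1r overlaps Hmgxb3 on the opposite strand, which had 17 to 332 counts a mouse, and whether counting used strand is not stated.

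Gpnmb, a membrane glycoprotein of lipid-laden macrophages, had 4.15, 5.47, 3.03, 2.39, 1.87 and 2.27 CPM in Smyd3-ASO mice 1 to 6. Control-ASO mice 1 to 6 had 0.817, 3.96, 0.251, 1.01, 2.14 and 1.54 CPM. Among the P133 mice, mouse 3 had 1 count and the others 0, and all 5 untreated mice had 0. Every ASO mouse was thus above every mouse without ASO. Against a floor of 3 counts over the untreated group, the level was at least 44.0-fold higher under Smyd3-ASO and at least 22.1-fold higher under control ASO. The edgeR adjusted p was 3.28e-05 for Smyd3-ASO and 0.00155 for control ASO over untreated, and 5.07e-04 and 0.00587 over P133. From summed counts, 368 under Smyd3-ASO and 121 under control ASO against 1 at P133, the ratios over P133 were 73.6 (exact 95% interval 13.1 to 2920) and 37.0 (6.51 to 1470), which covers counting error only. The Smyd3-ASO and control-ASO mice overlapped (log2 0.95, SE 0.46, adjusted p = 0.135), and without control-ASO mouse 2 the value was 1.46 and passed (0.0254).

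Cx3cr1, the fractalkine receptor of patrolling monocytes and many tissue macrophages, was also higher in ASO mice. It had 4.67 to 9.61 CPM under Smyd3-ASO (median 7.02), 3.02 to 18.1 under control ASO (median 13.4), 0.841, 2.20, 2.88 and 1.89 at P133 and 2.04, 2.72, 3.27, 1.31 and 1.74 CPM in untreated mice. The control-ASO mice were spread widely, and 1 of them fell among the untreated values. Over untreated livers it was higher by log2 1.64 (SE 0.28, adjusted p = 3.20e-04) under Smyd3-ASO and by log2 2.40 (SE 0.47, adjusted p = 0.00163) under control ASO. Over P133 the changes were log2 1.83 (adjusted p = 0.00258) under Smyd3-ASO and 2.57 (adjusted p = 0.00953) under control ASO, the second of which missed the threshold with limma voom (0.121). At P133 Cx3cr1 was at log2 -0.17 over untreated livers (adjusted p = 0.766).

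Lyz2, the lysozyme of macrophages and neutrophils, was higher than in untreated livers in every DEN group. It had 62.9 to 111 CPM in Smyd3-ASO mice (median 84.3), 21.8 to 59.1 in control-ASO mice (median 40.4), 73.0, 65.6, 72.9 and 55.1 in P133 mice and 26.5, 18.7, 26.8, 20.4 and 28.0 CPM in untreated mice. Every Smyd3-ASO mouse lay above every control-ASO and untreated mouse. Lyz2 was higher under Smyd3-ASO than under control ASO by log2 1.07 (SE 0.23, adjusted p = 0.00387), a call kept with any 1 mouse left out. Over untreated livers it was log2 1.83 (adjusted p = 5.10e-06) under Smyd3-ASO, 1.47 (adjusted p = 6.47e-06) at P133 and 0.78 (adjusted p = 0.0138) under control ASO. Control ASO over P133 was log2 -0.69 (adjusted p = 0.0462), a call that ended without control-ASO mouse 3, 4 or 5 or any P133 mouse (adjusted p up to 0.109). With the counts of its near-identical neighbour Lyz1 added, Smyd3-ASO over control ASO remained at log2 1.07 (adjusted p = 0.00389).

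Cd300ld, an activating receptor of the CD300 family on myeloid cells, was the 1 member of the 30 that set all Smyd3-ASO and P133 mice apart from all control-ASO and untreated mice, as 1.15% of all genes tested did. It had 5.46 to 10.9 CPM in Smyd3-ASO mice (median 7.59), 0.141 to 3.24 in control-ASO mice (median 0.553), 4.42, 5.76, 3.54 and 3.47 in P133 mice and 0.107, 0.118, 0.156, 0.290 and 0.267 CPM in untreated mice. Cd300ld was higher under Smyd3-ASO than under control ASO by log2 2.85 (SE 0.57, adjusted p = 0.00317), which stood at 3.64 without control-ASO mouse 6. Over untreated livers it was log2 5.34 (adjusted p = 1.62e-07) under Smyd3-ASO, 4.43 (adjusted p = 3.15e-06) at P133 and 2.49 (adjusted p = 0.0350) under control ASO. The last call ended without control-ASO mouse 5 or 6 or any untreated mouse (adjusted p up to 0.101), at log2 1.72 without control-ASO mouse 6. Over P133 livers Cd300ld was at log2 0.86 under Smyd3-ASO (adjusted p = 0.0228), which ended without P133 mouse 1, 3 or 4 (adjusted p up to 0.0732).

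The 4 close relatives of Cd300ld were counted in some groups and not in others. Cd300ld2, Cd300ld3, Cd300ld4 and Cd300ld5 had 0 counts in all 6 Smyd3-ASO and all 4 P133 mice. Cd300ld2 had 1 to 17 counts in every control-ASO mouse and 1 to 10 in every untreated mouse, and Cd300ld5 1 to 6 and 1 to 5. Summed over the family, the level was 7.90 ± 1.92 CPM in Smyd3-ASO mice (SD, n = 6), 2.27 ± 1.60 in control-ASO (n = 6), 4.30 ± 1.06 in P133 (n = 4) and 1.69 ± 0.520 in untreated mice (n = 5). On the sums, Smyd3-ASO over control ASO was log2 1.79 (adjusted p = 0.00210). Over untreated livers the sums were at 2.20 (1.91e-05) under Smyd3-ASO, 0.42 (0.426) under control ASO and 1.35 (0.00445) at P133. How reads that match several of these genes were assigned, and whether all groups were counted with the same settings, is not stated. The levels of Cd300ld alone, and the gap they leave between groups, rest on that assignment, whose part in the result was not tested.

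Ly6c2, a surface protein of classical monocytes, had 0.748 to 1.51 CPM in Smyd3-ASO mice (median 1.39), 0.353 to 0.810 in control-ASO mice (median 0.506), 0.158 to 0.665 in P133 mice and 0.83 to 1.74 CPM in untreated mice. Smyd3-ASO and untreated mice overlapped, and all control-ASO mice lay below all untreated mice. The changes were log2 1.19 (SE 0.31, adjusted p = 0.0127) for Smyd3-ASO over control ASO and log2 -1.08 (adjusted p = 0.0254) for control ASO over untreated. With its near-identical neighbour Ly6c1 added, the first was 0.82 (adjusted p = 0.05, just over the threshold) and the second turned to 0.50 (0.180). The second was -0.22 (0.618) with library totals, and also ended without control-ASO mouse 2 or untreated mouse 5 (adjusted p up to 0.0814). Smyd3-ASO over P133, at log2 1.49 (adjusted p = 0.0355), was 2.43 (0.00142) on the sums and ended, unsummed, without any 1 of Smyd3-ASO mice 1 to 3 or P133 mice 1, 2 and 4 (adjusted p up to 0.108).

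Ccr2, the chemokine receptor that brings monocytes out of the marrow, had 0.748 to 2.33 CPM in Smyd3-ASO mice, 0.272 to 2.11 in control-ASO mice, 0.158 to 0.508 in P133 mice and 0.107 to 0.467 CPM in untreated mice. All Smyd3-ASO mice lay above all mice without ASO (log2 2.40, SE 0.47, adjusted p = 9.58e-04 over untreated and log2 2.12, adjusted p = 0.0110 over P133). The change over untreated livers under control ASO was log2 1.66 (adjusted p = 0.0425), a call that ended without control-ASO mouse 2, 4, 5 or 6 or untreated mouse 1, 2 or 5 (adjusted p up to 0.123). Smyd3-ASO and control-ASO mice overlapped in Ccr2, at log2 0.75 (adjusted p = 0.214). Without control-ASO mouse 6, the highest of its group, this was 1.26 and passed (0.0357).

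Itgam, the integrin chain CD11b of myeloid cells, had 0.748 to 2.12 CPM in Smyd3-ASO mice, 0.0681 to 0.706 in control-ASO mice, 0 to 0.631 in P133 mice and 0 to 0.801 CPM in untreated mice. All Smyd3-ASO mice lay above all control-ASO mice (log2 1.62, SE 0.46, adjusted p = 0.0199), and the call ended without Smyd3-ASO mouse 4 (adjusted p = 0.0505). Over untreated livers it was log2 2.36 (adjusted p = 0.0121) and 3.94 without untreated mouse 5. Smyd3-ASO over P133, at log2 1.94 (adjusted p = 0.0480), ended without any 1 of 6 mice (Smyd3-ASO mice 1, 2 and 4 and P133 mice 2, 3 and 4, adjusted p up to 0.131) and stood at 2.57 without P133 mouse 1.

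Trem2, a lipid-sensing receptor of macrophages, had 0 to 24 counts a mouse. It averaged 0.721 CPM in Smyd3-ASO and 0.249 in untreated mice (log2 1.55, adjusted p = 0.0440), and the call ended without any 1 of Smyd3-ASO mice 1, 2, 3 and 6 or untreated mice 1 to 4 (adjusted p up to 0.105). Cd68, a lysosomal protein of all macrophages, averaged 6.53 ± 1.97 CPM in Smyd3-ASO, 5.11 ± 2.45 in control-ASO, 4.75 ± 0.302 in P133 and 5.45 ± 1.04 in untreated mice, and passed in none of the 6 comparisons (log2 -0.20 to 0.44). Ptprc, which encodes the pan-leukocyte antigen CD45, averaged 2.68, 2.55, 3.22 and 2.29 CPM in the same groups and also passed in none (log2 -0.30 to 0.49).

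T cell genes were low, and 6 of the 9 did not pass the filter on low counts. Trbc2, a constant segment of the T cell receptor beta chain, had 0.873 to 3.41 CPM in Smyd3-ASO mice (median 1.95), 0.214 to 1.38 in control-ASO mice (median 0.535), 0.420, 1.86, 2.66 and 1.58 in P133 mice and 2.04, 1.18, 1.09, 1.31 and 1.87 CPM in untreated mice. The 2 ASO groups overlapped in part. The change between them, Smyd3-ASO over control ASO, was log2 1.59 (SE 0.40, adjusted p = 0.0104), and 1.30 (0.00638) with the near-identical Trbc1 added. Under control ASO, Trbc2 was lower than in untreated livers at log2 -1.11 (adjusted p = 0.0359), but at -0.58 (0.173) on the sums and -0.28 (0.570) with library totals, and it ended without any 1 of control-ASO mice 2 to 5 or untreated mice 1 and 5 (adjusted p up to 0.0953). For Smyd3-ASO over untreated livers Trbc2 was at log2 0.45 (adjusted p = 0.296).

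Cd4, the co-receptor of helper T cells, had 10.6 to 24.6 CPM in Smyd3-ASO mice (median 16.5), 8.19 to 18.2 in control-ASO mice (median 12.5), 14.5, 7.11, 16.4 and 15.0 in P133 mice and 4.40, 8.52, 7.31, 6.23 and 8.81 CPM in untreated mice. It was higher than in untreated livers in all 3 DEN groups, by log2 1.2 (adjusted p = 0.00116) under Smyd3-ASO, 0.86 (adjusted p = 0.00847) under control ASO and 0.91 (adjusted p = 0.0136) at P133. Cd4 is also carried by some macrophages and dendritic cells, and the genes of the T cell receptor complex had few reads. Cd4 had 41 to 455 counts in each mouse, whereas Cd3e had 0 to 9, Cd3g 0 to 11 and Cd3d 0 to 21. Cd3d averaged 0.879 CPM in Smyd3-ASO, 0.227 in control-ASO, 1.13 in P133 and 0.348 in untreated mice and passed in none of the 6 comparisons.

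By raw counts, killer T cell and checkpoint genes were found mainly in Smyd3-ASO mice, the group with the most depth. A floor of 3 counts over the group was 0.0279 CPM there, 0.0426 in control-ASO, 0.139 in P133 and 0.0778 in untreated mice. Cd8a, a co-receptor chain of killer T cells, had 11, 22, 5, 13, 3 and 5 counts in Smyd3-ASO mice 1 to 6 and 0 to 4 in every other mouse. Cd8b1, its partner chain, had 5, 22, 1, 2, 2 and 4 counts, against 0 to 2 in control-ASO mice and 0 in all P133 and untreated mice. Pdcd1, the checkpoint receptor PD-1, had 5, 3, 1, 13, 2 and 1 counts, and Ctla4, the checkpoint receptor of activated and regulatory T cells, had 0 to 2, while both had 0 in the other 15 mice. Summed counts of Pdcd1 put it at least 5.46-fold higher under Smyd3-ASO than under control ASO, at a floor of 3 counts over the group (exact 95% lower limit 3.53, counting error only). Cd3g had 27 counts in Smyd3-ASO and 3 in control-ASO mice, a ratio of 5.89 (1.81 to 30.3). Of the 25 counts of Pdcd1, 13 were in mouse 4. Pdcd1 passed over control ASO in a fit of all genes without the filter (adjusted p = 0.0121), and Cd8a, Cd8b1 and Pdcd1 did so over untreated livers (adjusted p = 0.0400, 0.0107 and 0.0199). Over control ASO, Cd8a (adjusted p = 0.152), Cd8b1 (0.204), Cd3g (0.0884) and Ctla4 (0.0947) did not pass in that fit. None of these genes passed over P133 livers (0.0709 to 0.767). Relative to depth, summed counts of Cd8a came to 0.549 CPM in Smyd3-ASO, 0.171 in control-ASO, 0.279 in P133 and 0.130 in untreated mice. Those of Cd3g came to 0.251, 0.0426, 0.186 and 0.130 CPM. By the floor, Smyd3-ASO over untreated was at least 4.31-fold for Cd8b1, 2.99 for Pdcd1 and 0.837 for Ctla4. Over P133 these were 2.40, 1.67 and 0.467, so the zeros of Ctla4 in those groups do not show a difference. Depth differed between the groups, and 1 count was worth 0.0388 to 0.126 CPM in Smyd3-ASO, 0.0681 to 0.126 in control-ASO, 0.158 to 0.222 in P133 and 0.107 to 0.156 CPM in untreated mice.

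Of the 6 NK and cytotoxic genes 1 was tested. Gzma, the protease granzyme A, had 0.374 to 4.69 CPM in Smyd3-ASO mice, 0.272 to 1.94 in control-ASO mice, 0 to 1.55 in P133 mice and 0.156 to 0.473 CPM in untreated mice. It was higher than in untreated livers under Smyd3-ASO (log2 2.15, adjusted p = 0.0162) and under control ASO (log2 1.49, adjusted p = 0.0260). The first was at 1.42 without Smyd3-ASO mouse 4, and the second ended without control-ASO mouse 6 or untreated mouse 3 or 4 (adjusted p up to 0.0677). Nkg7, a granule membrane protein of killer cells, had 9, 31, 10, 11, 3 and 7 counts in Smyd3-ASO mice, against 0 to 7 in control-ASO, 1 or 2 in P133 and 0 or 1 in untreated mice. Over untreated livers the ratio of summed counts was 8.49 (exact 95% interval 2.79 to 42.2), and the gene passed without the filter (adjusted p = 0.00489). The pore-forming protein gene Prf1 had 50 counts over the Smyd3-ASO group, 18 over control-ASO, 1 over P133 and 4 over untreated mice, and Gzmb had 39, 10, 3 and 6. In CPM of the summed counts these were 0.465, 0.256, 0.0465 and 0.104 for Prf1 and 0.363, 0.142, 0.139 and 0.156 for Gzmb. Klrb1c, an NK receptor gene, had 51 counts over Smyd3-ASO, 4 over control-ASO, 13 over P133 and 4 over untreated mice. Relative to depth this was 0.474, 0.0568, 0.604 and 0.104 CPM, highest at P133. Ncr1, another NK receptor gene, had 13, 2, 0 and 4 counts, or 0.121 CPM in Smyd3-ASO and 0.104 CPM in untreated mice. Without the filter Klrb1c passed as higher for Smyd3-ASO over control ASO (log2 2.95, adjusted p = 0.0175) and as lower for control ASO over P133 (log2 -3.09, adjusted p = 0.0323), but it overlaps Gm44511 on the same strand, which had 126 counts in Smyd3-ASO and 131 in control-ASO mice.

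Of the 6 B lineage genes 4 were tested, and the antibody genes Jchain and Igkc were higher than in untreated livers in all 3 DEN groups. Jchain, which joins IgA and IgM in plasma cells, had 3.73, 8.11, 4.27, 1.59, 8.48 and 3.66 CPM in Smyd3-ASO mice and 8.37, 2.33, 8.55, 7.31, 4.29 and 5.19 CPM in control-ASO mice. P133 mice had 2.1, 3.39, 5.54 and 2.68 CPM, and untreated mice 0.644, 0.237, 0.622, 0.580 and 0. Every DEN mouse lay above every untreated mouse. Over untreated livers Jchain was at log2 3.54 (SE 0.58, adjusted p = 2.71e-04) under Smyd3-ASO, 3.81 (SE 0.49, adjusted p = 3.44e-05) under control ASO and 2.99 (SE 0.53, adjusted p = 6.25e-04) at P133. Between the ASO groups it was at log2 -0.27 (adjusted p = 0.637).

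Igkc, the kappa light chain constant segment, averaged 12.0 ± 4.97 CPM under Smyd3-ASO (SD, n = 6), 12.8 ± 4.31 under control ASO (n = 6), 11.2 ± 1.78 at P133 (n = 4) and 6.74 ± 2.20 in untreated mice (n = 5). It was higher than in untreated livers under Smyd3-ASO (log2 0.82, adjusted p = 0.0374), control ASO (log2 0.93, adjusted p = 0.00926) and at P133 (log2 0.74, adjusted p = 0.0225). The Smyd3-ASO call ended without any 1 of Smyd3-ASO mice 2, 5 and 6 or untreated mice 1, 2, 4 and 5 (adjusted p up to 0.0944), and the P133 call without P133 mouse 3 or 4 or untreated mouse 2 (up to 0.0683). Ighm, the IgM heavy chain constant segment, averaged 5.77, 6.75, 5.47 and 5.03 CPM in Smyd3-ASO, control-ASO, P133 and untreated mice and passed in none of the 6 comparisons.

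Cd79b, a signalling chain of the B cell receptor, had 0.703 to 1.32 CPM in Smyd3-ASO mice, 0.243 to 0.754 in control-ASO mice, 0, 0, 0 and 0.158 in P133 mice and 0.215, 0.592, 0.467, 0.145 and 1.34 CPM in untreated mice. Only 1 count was found among the 4 P133 mice. Cd79b was higher under Smyd3-ASO than under control ASO (log2 1.24, SE 0.33, adjusted p = 0.0142), a call kept with any 1 mouse left out. Over P133, summed counts gave a ratio of 21.8 (exact 95% interval 3.83 to 869, adjusted p = 0.00281) under Smyd3-ASO and 8.86 (1.47 to 362, adjusted p = 0.0377) under control ASO. Cd79b was lower at P133 than in untreated livers (adjusted p = 0.0440), but missed the threshold without any 1 P133 mouse or untreated mouse 2, 3 or 5 (adjusted p up to 0.109), and control ASO over P133 ended without control-ASO mouse 2, 3 or 5 or P133 mouse 1, 2 or 3 (up to 0.0969). The B cell surface gene Ms4a1 had 47 counts over Smyd3-ASO, 22 over control-ASO, 2 over P133 and 6 over untreated mice, and Cd79a, the partner of Cd79b, had 16, 10, 1 and 3. Relative to depth these were 0.437, 0.313, 0.0930 and 0.156 CPM for Ms4a1 and 0.149, 0.142, 0.0465 and 0.0778 CPM for Cd79a.

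Neutrophil genes were highest in single mice, and of the 3 tested none passed between the ASO groups with edgeR, while S100a9 and Cxcr2 did so under some alternatives. S100a8, a subunit of calprotectin, had 2.88, 5.20, 41.5, 10.1, 9.04 and 5.30 CPM in Smyd3-ASO mice 1 to 6 and 2.52 to 9.39 CPM in control-ASO mice. It had 0.420, 1.02, 2.22 and 1.89 CPM in P133 mice and 2.36, 1.18, 0.622, 1.59 and 18.2 CPM in untreated mice. S100a9, the other subunit, was also highest in Smyd3-ASO mouse 3 (49.5 CPM) and, among untreated mice, in mouse 5 (14.2 CPM). Over untreated livers S100a8 was at log2 1.35 (adjusted p = 0.272) under Smyd3-ASO and 0.12 (0.914) under control ASO, and S100a9 at 1.82 (0.101) under Smyd3-ASO. Without untreated mouse 5 these were 3.04 (0.0147), 1.81 (0.00335) and 2.99 (0.0106), all past the threshold. Between the ASO groups the change was log2 1.24 (SE 0.60, adjusted p = 0.144) for S100a8 and 2.04 (SE 0.71, adjusted p = 0.0513) for S100a9, which passed with DESeq2 (adjusted p = 0.0179), library totals (0.0474), all 21 mice in 1 fit (0.0350) and without Smyd3-ASO mouse 1 or 6 or control-ASO mouse 2 (0.0395 to 0.0449). Every ASO mouse lay above every P133 mouse in S100a8, at log2 3.14 (adjusted p = 0.0309) under Smyd3-ASO and 1.89 (adjusted p = 0.00727) under control ASO. The Smyd3-ASO value was 2.22 without Smyd3-ASO mouse 3, and its call ended without any P133 mouse (adjusted p up to 0.0790). S100a9 over P133 was log2 3.49 (adjusted p = 0.0201) under Smyd3-ASO, 2.66 without Smyd3-ASO mouse 3, and ended without P133 mouse 1 or 2 (adjusted p up to 0.0542).

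Cxcr2, the chemokine receptor of neutrophils, had 0.661, 0.853, 3.46, 1.15, 0.374 and 0 CPM in Smyd3-ASO mice 1 to 6, 0.136 to 0.672 in control-ASO mice, 0 in all P133 mice and 0 to 0.435 CPM in untreated mice. Smyd3-ASO over control ASO, at log2 1.75 (adjusted p = 0.0758), passed with DESeq2 (0.0458), with all 21 mice in 1 fit (0.0497) and without Smyd3-ASO mouse 6 (1.95, 0.0246). Against a floor of 3 counts over the P133 group it was at least 2.34-fold higher under control ASO (adjusted p = 0.0359), a call that ended without control-ASO mouse 2, 4 or 6 or any P133 mouse (adjusted p up to 0.0748). Smyd3-ASO over untreated, at log2 2.34 (adjusted p = 0.0487), was 1.56 without Smyd3-ASO mouse 3 and ended without any 1 of Smyd3-ASO mice 1 to 4 or of the 5 untreated mice (adjusted p up to 0.110). Ly6g, the neutrophil surface antigen, had 6 counts in Smyd3-ASO mice, of which 4 were in mouse 3, 2 in control-ASO, 0 in P133 and 1 in untreated mice.

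Of the dendritic cell genes, Itgax, the integrin chain CD11c shared with macrophages, was higher in DEN livers. It had 0.865 to 2.17 CPM in Smyd3-ASO mice, 0.503 to 2.11 in control-ASO mice, 0.841, 1.19, 1.11 and 0.631 in P133 mice and 0.536, 0.118, 0.311, 0.145 and 0.134 CPM in untreated mice. Over untreated livers it was at log2 2.48 (adjusted p = 5.51e-04) under Smyd3-ASO, 2.20 (adjusted p = 0.00448) under control ASO and 1.80 (adjusted p = 0.0347) at P133. The P133 call ended without any 1 of P133 mice 1 to 3 or untreated mice 2, 4 and 5 (adjusted p up to 0.0928). Siglech, a lectin of plasmacytoid dendritic cells, had 0.748 to 2.72 CPM in Smyd3-ASO, 0.212 to 0.885 in control-ASO, 0 to 0.847 in P133 and 0 to 1.02 CPM in untreated mice. The call over control ASO, at log2 1.41 (adjusted p = 0.0266), ended without Smyd3-ASO mouse 1 or 2 or control-ASO mouse 2, 5 or 6 (adjusted p up to 0.0738). Over untreated livers Siglech was at log2 1.78 (adjusted p = 0.0244) under Smyd3-ASO, was 2.41 without untreated mouse 4, and ended without Smyd3-ASO mouse 2 or untreated mouse 1 or 3 (adjusted p up to 0.0623). Flt3, the growth factor receptor of dendritic cell precursors, had 41 counts over Smyd3-ASO, 7 over control-ASO, 0 over P133 and 5 over untreated mice. In CPM of the summed counts this was 0.381, 0.0995, 0 and 0.130. The untreated mice were highest in Xcr1, of cross-presenting dendritic cells. Relative to depth, its summed counts came to 0.391 CPM in Smyd3-ASO, 0.270 in control-ASO, 0.232 in P133 and 0.596 CPM in untreated mice.

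**Figure D4:**
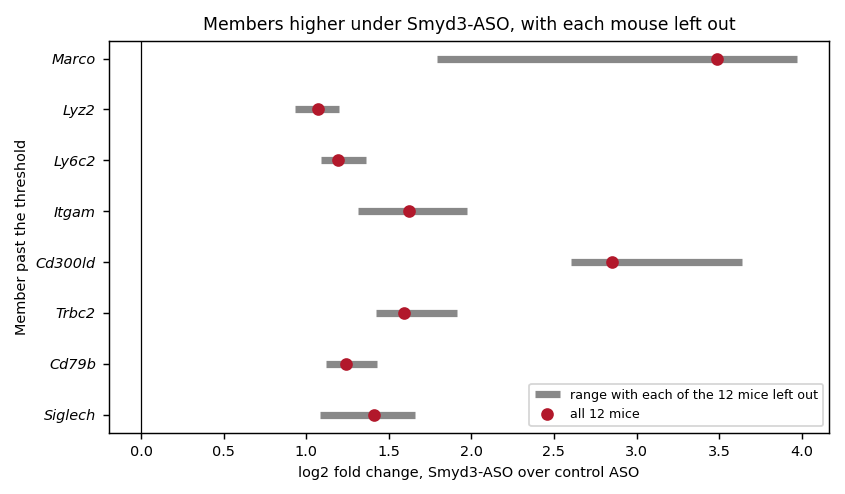
Log2 fold changes, Smyd3-ASO over control ASO, of the 8 members past the threshold (points) with the range over 12 fits that each left out 1 mouse (bars). Marco ranged from 1.79 to 3.97, and Lyz2 from 0.93 to 1.2.

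With each mouse left out in turn, 5 of the 8 members higher under Smyd3-ASO than under control ASO kept their call (Lyz2, Ly6c2, Cd300ld, Trbc2 and Cd79b). The other 3 were Marco, Itgam and Siglech. The calls kept were 11 of 16 for control ASO over untreated, 14 of 21 for Smyd3-ASO over untreated, 7 of 11 for P133 over untreated, 6 of 11 for control ASO over P133 and 7 of 12 for Smyd3-ASO over P133. Under every alternative tried, 4 of the 8 calls were kept (Lyz2, Cd300ld, Trbc2 and Cd79b), as were 7 of 16, 12 of 21, 5 of 11, 2 of 11 and 7 of 12 in those other comparisons, in the same order. Csf1r, Cx3cr1, Gpnmb, Cd4, Jchain and Itgax were among those kept over untreated livers in both ASO groups.

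Beyond the members, 109 further genes of the same cell sets were listed, and 71 of them were tested. Between the ASO groups 22 of these were higher and 2 lower under Smyd3-ASO, with a median log2 fold change of 0.47. They were 33.8% of the 71, beside 26.1% of all genes (13.3% higher and 12.9% lower). Which of the 71 passed the filter only through the Smyd3-ASO or ASO mice was not checked. Their calls were also not checked with each mouse left out, so these counts, shares and medians are a description only. Of 10 pan-leukocyte genes 6 were higher, led by Lcp1 and Coro1a, actin-binding proteins of blood cells (log2 0.95 and 1.97, adjusted p = 2.46e-04 and 3.37e-04) and the lysosomal protein gene Laptm5 (1.51, adjusted p = 8.02e-04). Laptm5 averaged 45.2 CPM under Smyd3-ASO, 15.7 under control ASO and 5.14 in untreated livers. Of 12 further Kupffer cell genes 5 were higher, led by C1qa, a chain of complement C1q (log2 1.82, edgeR adjusted p = 3.96e-04). C1qa averaged 172 ± 61.4 CPM under Smyd3-ASO and 48.4 ± 13.2 under control ASO (SD, n = 6 each). Its partner chains C1qb and C1qc, named after their values were seen, were at log2 0.45 (adjusted p = 0.0779) and 0.42 (adjusted p = 0.121). Of 19 further monocyte and macrophage genes tested, 2 were higher and 2 lower (median log2 0.26). That is 21.1% called, beside 26.1% of all genes. The 20 genes of that list summed to 571 to 726 CPM under Smyd3-ASO and 701 to 1450 CPM under control ASO. The 2 lower genes, both on the monocyte and macrophage list, were Lpl, lipoprotein lipase (log2 -1.41, adjusted p = 0.00355), and the fatty acid carrier Fabp5 (log2 -1.39, adjusted p = 0.0231), neither of which is limited to macrophages.

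Further genes set against untreated livers gave 15 higher and 9 lower under control ASO, 38 and 7 under Smyd3-ASO and 19 and 8 at P133. The shares called, in the same order, were 33.8%, 63.4% and 38.0% of the 71, beside 45.9%, 47.6% and 31.6% of all genes, so the share under control ASO was below its background. These counts and shares are likewise a description only. C1qb was lower in all 3, at log2 -1.96 under control ASO (adjusted p = 7.72e-06), -1.53 under Smyd3-ASO (adjusted p = 1.58e-05) and -1.56 at P133 (adjusted p = 2.59e-05), whereas C1qa was higher under Smyd3-ASO (log2 1.51, adjusted p = 6.47e-04). Cd163, the haemoglobin scavenger receptor, also named after its values were seen, averaged 1.62 CPM under Smyd3-ASO, 3.59 under control ASO, 15.0 at P133 and 11.1 CPM in untreated livers. Mmp12, the macrophage elastase, averaged 4.19 CPM under Smyd3-ASO (adjusted p = 1.83e-04) and 8.26 under control ASO (adjusted p = 2.64e-05), against 0.0526 CPM in untreated livers. Igha, the IgA heavy chain, averaged 13.4 CPM under Smyd3-ASO (log2 3.08, adjusted p = 0.00121), 22.0 under control ASO (log2 3.79, adjusted p = 2.58e-04) and 7.35 at P133 (log2 2.23, adjusted p = 9.06e-04), against 1.51 in untreated livers. Like Jchain, it was higher in all 3 DEN groups.

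Other cells of the liver moved in the same comparisons. Relative to control ASO, 6 of 8 hepatocyte markers were lower under Smyd3-ASO and 1 higher, 4 of 8 sinusoidal endothelial markers were lower, 3 of 4 erythroid markers were lower and 1 higher, and of 8 stellate cell and fibroblast markers 1 was higher and 1 lower. In that comparison 13.3% of all genes were higher and 12.9% lower. The erythroid sum was 477 to 1120 CPM in Smyd3-ASO, 1760 to 4480 in control-ASO, 1090 to 1540 in P133 and 2610 to 6510 CPM in untreated mice. The part of these shifts in the marker levels was not tested.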

How the data were processed

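Liver RNA of 21 mice was measured by QuantSeq 3' mRNA sequencing in 35 libraries, and the deposited table of raw counts has 1 column per mouse, with the libraries of an ASO mouse already merged by the authors. The authors aligned reads with HISAT2 2.1.0 to mm10 and used DESeq, per the submitters' processing notes. The counting program, annotation and use of strand are not given in the sources used here. The labels call each mouse a biological replicate, so p-values measure the spread between mice.

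Groups were taken from the labels. Gene names and positions came from GENCODE vM21, which matched all 55413 identifiers. The deposited normalized table was not used. CPM were computed with TMM factors over all 21 mice. Each of 6 comparisons was tested on its own pair of groups with edgeR 4.0.16 in R 4.3.3 (quasi-likelihood, robust, TMM) over 15297 genes kept by filterByExpr (minimum count 10, minimum total 15), with Benjamini-Hochberg adjustment over all of them and a threshold of 0.05. Alternatives were DESeq2 1.42.0, limma 3.58.1 voom, DESeq2 size factors, library totals, no filter, all 21 mice in 1 fit, a replicate block and leaving out each mouse. After seeing the data, 2 more were added, namely leaving out Smyd3-ASO mice 3 and 4 with untreated mouse 5, and summing near-identical genes. Intervals and floors (3 counts) cover counting error only. The procedure was first tested on simulated data. All members may be named, and of the further lists the 3 genes with the smallest p per list; others are marked in the text. Members, lists and tests were chosen with earlier results of these data known.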

Additional observations from a re-analysis of the deposited data

Results flagged for a closer look

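Within 118 groupings of a member and a group of 4 to 6 mice, 18 held a mouse far from the others by Dixon's test. For normally distributed values chance gives about 1 in 20, but low counts need not meet that. A lone read in 1 of 4 mice is always flagged, so the 18 cannot show an excess. No cause was tested.

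Smyd3-ASO mouse 4 stood above the other 5 in the macrophage genes Marco (118.7 CPM, against 3.53 to 15.0), Timd4 (3.006 CPM) and Itgam (2.122 CPM), and in the granzyme gene Gzma (4.686 CPM). Smyd3-ASO mouse 3 stood above the other 5 in all 3 neutrophil genes tested, with 41.45 CPM of S100a8, 49.5 of S100a9 and 3.459 of Cxcr2. Smyd3-ASO mouse 5 had 43.77 CPM of Vsig4.

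Control-ASO mouse 5 was highest in its group for Timd4 (2.895 CPM) and mouse 6 for Ccr2 (2.106 CPM). Among P133 mice, mouse 3 was highest in Vsig4 (123.2 CPM) and alone had a read of Gpnmb (0.2215 CPM). P133 mouse 4 was lowest in Clec4f (17.67 CPM) and alone had a read of Cd79b (0.1577 CPM).

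Untreated mouse 5 was apart in 4 myeloid genes, namely Cd5l (141.9 CPM), Itgam (0.8012 CPM), S100a8 (18.16 CPM) and S100a9 (14.15 CPM), where the other 4 untreated mice had 0.622 to 2.36 CPM of S100a8.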

How the results depend on the processing

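Of 3480 member values under alternatives, 3151 kept their side of the threshold and, where called, their direction. Of the rest, 235 lost a call, 89 gained one and 5 turned. A change of direction in a value called in neither fit was not counted as a turn. With library totals in place of TMM, the median of all genes was at 0.90 for control ASO over untreated, 0.96 for Smyd3-ASO over untreated and 0.59 for P133 over untreated. There Clec4f turned to 0.18 and Vsig4 to 0.23 (control ASO over untreated), Vsig4 to 0.05 (Smyd3-ASO over untreated) and Clec4f to 0.52 (P133 over untreated). Members lower were then 1 for Smyd3-ASO over control ASO, 1 for control ASO over untreated, 2 for Smyd3-ASO over untreated, 0 for P133 over untreated and 2 for control ASO over P133, and all genes called were 10723 for control ASO and 7292 for P133 over untreated. With near-identical genes summed, Ly6c2 turned to 0.50 for control ASO over untreated.

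For Smyd3-ASO over control ASO, 1 member, Clec4f, was lower with DESeq2, limma voom and all 21 mice in 1 fit, and 1 other, Timd4, without Smyd3-ASO mice 3 and 4. Without a filter, 2 members were lower for Smyd3-ASO over untreated. P133 over untreated had 1 member lower with limma voom and 1 without untreated mouse 5. Limma voom gave 2 members higher for control ASO over P133 and 4 for Smyd3-ASO over P133, and all 21 mice in 1 fit gave 3 for control ASO over P133.

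Mice with the same number shared no common deviation (r -0.141 to 0.129), so the replicate block is not a pairing. With the replicate block, members higher and lower were 5 and 1 for Smyd3-ASO over control ASO (3092 genes), 6 and 5 for control ASO over untreated (5699 genes), 13 and 4 for Smyd3-ASO over untreated (6995 genes), 9 and 1 for P133 over untreated (4358 genes), 2 and 7 for control ASO over P133 (2530 genes) and 9 and 3 for Smyd3-ASO over P133 (3867 genes).

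With 1 mouse left out at a time, members higher ranged from 7 to 10 and lower from 0 to 2 for Smyd3-ASO over control ASO, 7 to 11 and 4 to 6 for control ASO over untreated, 12 to 17 and 3 to 4 for Smyd3-ASO over untreated, 6 to 9 and 1 to 2 for P133 over untreated, 3 to 5 and 3 to 8 for control ASO over P133 and 5 to 10 and 3 to 4 for Smyd3-ASO over P133. All genes called ranged from 2519 (without P133 mouse 2) to 4282 for Smyd3-ASO over P133. The cause of these shifts was not tested. Depth limits the 16 untested members, for which 1 count was worth up to 0.222 CPM.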

Other observations

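Of the further lists, Smyd3-ASO over control ASO had 2 of 5 T cell genes higher (median log2 0.08), 2 of 11 B cell genes (median 0.32), 2 of 5 NK and cytotoxic genes (median 0.81) and 2 of 4 neutrophil genes (median 1.25), with 0 lower in each, beside 13.3% of all genes higher. The IgG heavy chain genes Ighg2b and Ighg2c averaged 1.70 and 1.47 CPM under Smyd3-ASO and 0.303 and 0.375 CPM under control ASO (log2 2.48 and 1.92, edgeR adjusted p = 0.00602 and 0.0103), with all Smyd3-ASO mice above all control-ASO mice. Near-identical immunoglobulin segments can share reads, so the split between these genes is uncertain. Zap70, a kinase of the T cell receptor pathway, averaged 9.55 CPM against 5.76 CPM (log2 0.72, adjusted p = 0.0111), again without overlap. Il2rb, a receptor chain for interleukins on NK and T cells, averaged 3.95 CPM against 1.68 CPM (log2 1.25, adjusted p = 0.00795). The chemokine gene Ccl5 averaged 6.20 CPM against 2.69 CPM (log2 1.18, adjusted p = 0.0359). Csf3r, the receptor for granulocyte colony-stimulating factor, averaged 2.56 CPM against 1.03 CPM (log2 1.29, adjusted p = 0.0116), although the 3 neutrophil members tested did not pass. The groups overlapped in Il2rb, Ccl5 and Csf3r. Of 5 further dendritic cell genes tested, 1 was higher and 0 lower (median log2 0.31). Which further genes passed the filter only through the Smyd3-ASO mice was not checked, so these counts and medians are a description only.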
